A study of Mus musculus with 6 samples.

Results

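Ribosome biogenesis and RNA polymerase I genes were examined in primary mouse keratinocytes that carried active NFATc1. The set was chosen by gene symbol: the Utp, Nop, Nol and Rrp genes followed by a number, the Polr1 genes, and 14 named genes, among them Ncl, Npm1, Fbl, Dkc1, Pes1 and Myc. It holds 54 of the 19935 genes with a row of their own, measured by 59 of 21780 rows. The keratinocytes came from wild type CD1 mice and were grown in low calcium medium. The caNFATc1 group consists of 3 cultures infected with a retrovirus for human NFATc1 whose autoinhibitory domain was mutated, which leaves the protein constitutively active, and the vector control group of 3 cultures infected with virus from empty MSCV. Total RNA from each culture was measured on a single-colour array. The series design calls the replicates biological, and the age of the mice is not given in the sources used here. NFATc1 is a transcription factor that calcineurin activates, and the active form was forced on the cells by a virus, so its dose is not that of the cells' own gene. In these bulk samples, fewer cells that make an RNA and less RNA per cell cannot be told apart.

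Ribosomes are built in the nucleolus. RNA polymerase I copies the ribosomal DNA into a long precursor RNA, which the small subunit processome folds and cuts, small nucleolar ribonucleoproteins (snoRNPs) modify, and assembly factors combine with ribosomal proteins into the small (40S) and large (60S) subunits. The transcription factor MYC is known to raise genes of these steps in growing cells, basal keratinocytes among them.

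MYC binds the E-box CACGTG, so the start regions of the set were searched for these letters, which read the same on both strands. RefSeq promoter windows of GRCm38.p6, each running from 250 bases before to 50 bases after a start, were at hand for 40 of the 54 genes. The E-box stood in a window of 7 of the 40 genes (17.5%), namely Nol11, Nop2, Pes1, Utp4, Utp18, Utp20 and Utp25, against 8.09% of the 27025 genes in the table. Within the 150 bases before the start it stood in 3 of 54 windows (5.56%), against 4.3% of all 32851 windows. Those 3 stretches are shown because they hold the E-box, in capitals, at 60 bases (Nop2), 43 bases (Nol11) and 20 bases (Utp18) before the start. They lie at chr6:125131733-125131882 on the plus strand (Nop2), chr11:107189382-107189531 on the minus strand (Nol11) and chr11:93885767-93885916 on the minus strand (Utp18).
Nop2: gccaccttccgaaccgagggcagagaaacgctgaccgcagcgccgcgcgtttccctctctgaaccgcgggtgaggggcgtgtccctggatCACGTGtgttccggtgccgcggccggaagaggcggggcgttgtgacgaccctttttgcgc
Nol11: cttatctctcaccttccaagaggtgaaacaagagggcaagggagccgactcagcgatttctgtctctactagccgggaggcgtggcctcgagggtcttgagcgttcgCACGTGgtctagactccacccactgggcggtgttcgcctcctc
Utp18: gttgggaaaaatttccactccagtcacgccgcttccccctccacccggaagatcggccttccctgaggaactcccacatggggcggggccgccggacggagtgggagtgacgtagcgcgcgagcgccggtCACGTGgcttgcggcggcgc
The letters TCTCGCGA, on either strand, stood in a window of Nol9, Nop14, Nop58 and Polr1c (4 of 40 genes, 10.0%, against 1.13% of all genes). The NFAT core GGAAA, on either strand, stood in windows of 31 of the 40 genes (77.5%), against 64.4% of all genes. The AP-1 letters TGACTCA, on either strand, were in 0 of the 54 windows, against 5.2% of all windows. Windows of the set held a median of 21 CpG pairs, against 7 for all windows, which include those of non-coding genes. The E-box and TCTCGCGA both contain CpG, and their shares were not adjusted for it. Among the 9 genes with a mean log2 difference of -0.5 or lower (below), no window held the E-box. These windows belong to Rrp1b, Polr1b, Rrp9, Dkc1, Gar1, Nolc1 and Wdr12, while Tcof1 and Rrs1 had no window. The 7 genes with the E-box differed by between -0.48 (Utp25) and -0.18 (Pes1). These matches describe the letters only.

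Nearly the whole set was lower in caNFATc1 cells, by modest amounts. The mean log2 difference, caNFATc1 minus vector control, was negative for 52 of the 54 genes (52.6% of all genes were negative). Its median over the set was -0.31, against -0.01 over all genes. It reached -0.5 or lower for 9 genes and lay between -0.1 and 0.1 for 10, and the extremes were -0.77 for Rrp1b and 0.03 for Nop53. The set was proposed with this contrast already known, so these values describe it. The limma calls counted below are on the same contrast and are a description too, and no p-value of a gene in the set is given. Every value is a log2 signal relative to that row's median over the 6 arrays, so differences can be read and levels cannot. Errors on differences in the set are the SD over the 3 same-numbered pairs of arrays (n = 3 pairs). Errors in the other gene lists are the SE of limma with the replicate block, which is a different measure from this SD.

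**Figure D1:**
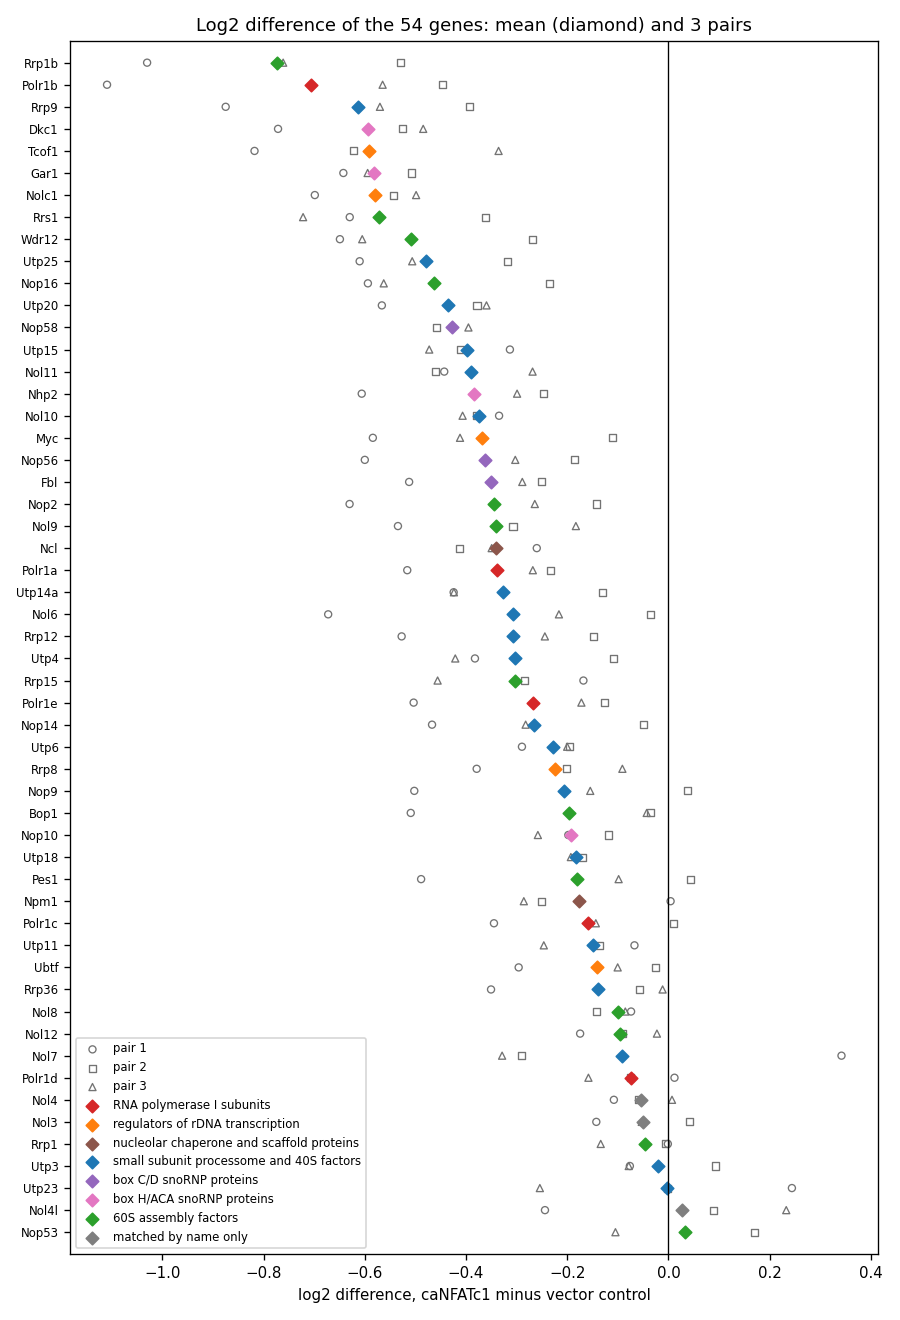
Each line is 1 of the 54 genes, ordered by its mean log2 difference, caNFATc1 minus vector control (diamond, coloured by role), with the differences of the 3 same-numbered pairs as open symbols. The diamonds run from -0.77 (Rrp1b) to 0.03 (Nop53), with 52 left of 0, and pair 1 (circles) is the most negative of the 3 pairs for 35 genes.

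With the array as the unit, 25 of the 54 genes had all 3 caNFATc1 values below all 3 control values (9.09% of all genes did), and 0 lay wholly above (9.64% of all genes). The difference was negative in all 3 pairs for 42 genes (21.3% of all genes) and positive in all 3 for 0 (21.6% of all genes). Limma, fitted over all genes with group as the only term, called 0 of the 54 at an adjusted p under 0.05, where it called 0.01% of all genes lower. It called 0 of them higher, against 0.206% of all genes. At an unadjusted p under 0.05, 25 of the 54 were lower and 0 higher by limma, against 5.64% and 7.07% of all genes. Without the caNFATc1 replicate 2 array, limma with group alone called 1 of the 54 lower, Rrp1b, and 0.0451% of all genes, and with quantile normalized arrays it called Dkc1 and Nolc1, and 0.1% of all genes. Same-numbered arrays deviated together, and with the replicate number as a block limma called 17 of the 54 lower (2.38% of all genes) and 0 higher (3.73% of all genes). Without replicate 1, 2 or 3 of both groups that fit called 6, 10 and 8 of the 54 lower, where it called 1.01%, 1.15% and 2.41% of all genes. Rrp1b, Polr1b, Dkc1, Gar1 and Nolc1 were called in each of these 4 fits with the block.

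The size of the difference depended on the pair. Its median over the set was -0.44 in pair 1, -0.18 in pair 2 and -0.27 in pair 3, while the median over all genes was -0.06, 0.02 and 0.01. Pair 1 gave the most negative difference for 35 of the 54 genes, as it did for 52.0% of all genes. On single arrays the median value of the set was 0.13, 0.14 and 0.08 in vector control replicates 1, 2 and 3, and -0.23, -0.04 and -0.18 in caNFATc1 replicates 1, 2 and 3. The caNFATc1 replicate 2 array lay closest to the controls and held the highest of the 3 caNFATc1 values for 35 genes. Within a group, the median SD of a gene of the set over the 3 arrays was 0.13 in controls and 0.16 in caNFATc1 cells, against 0.10 and 0.11 for all genes.

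**Figure D2:**
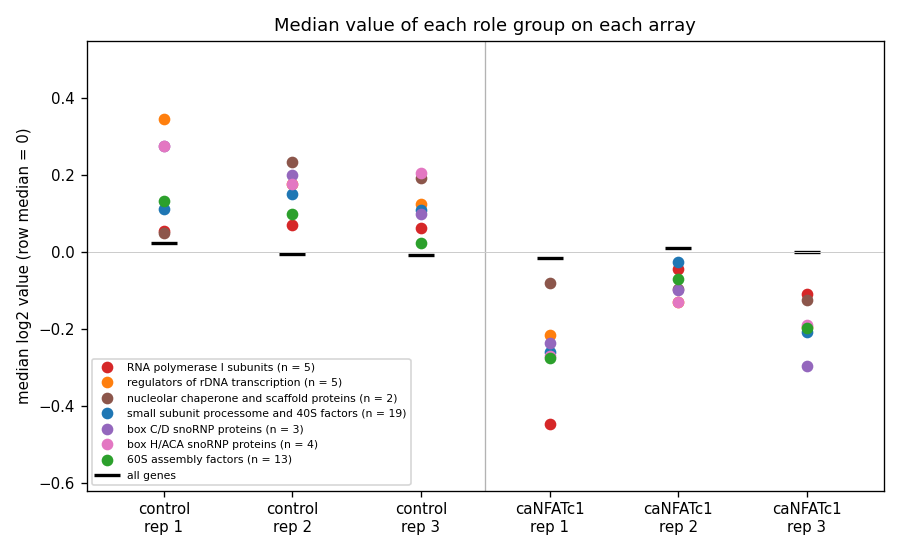
Points give the median log2 value (row median set to 0) of each role group on each of the 6 arrays, leaving out the 3 genes that match by name only, and black bars give the median of all 19935 genes. Medians of the plotted groups are above 0 on the 3 control arrays and below 0 on the 3 caNFATc1 arrays. For the 5 polymerase I subunits of the set they run from 0.07 in control replicate 2 to -0.45 in caNFATc1 replicate 1.

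The 5 RNA polymerase I subunits of the set, those with a Polr1 symbol, all had negative differences, with a median of -0.27. Further subunits outside the naming rule are given with the other polymerase I factors below. Polr1b encodes one of the large subunits that form the catalytic centre. Its values were 0.23, 0.40 and 0.04 in vector control replicates 1, 2 and 3 and -0.88, -0.04 and -0.52 in caNFATc1 replicates 1, 2 and 3. All caNFATc1 arrays were below all controls, though caNFATc1 replicate 2 nearly met control replicate 3, and the mean difference was -0.71 ± 0.35, or 1.63-fold lower. Polr1a, the largest subunit, had control values of -0.16, 0.30 and 0.20 and caNFATc1 values of -0.68, 0.07 and -0.07. It was lower in every pair by a mean of -0.34 ± 0.15, yet the groups overlapped because replicate 1 was low in both. Polr1e, whose product helps the enzyme start on the promoter, differed by -0.27 ± 0.21 without overlap. Polr1c and Polr1d encode subunits that RNA polymerase III shares, and they differed by -0.16 ± 0.18 and -0.07 ± 0.09 with overlapping groups. Polr1d was at 0.01, -0.08 and 0.09 in controls and 0.03, -0.15 and -0.07 in caNFATc1 cells.

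Regulators of ribosomal DNA transcription were led by Tcof1 and Nolc1. Tcof1 encodes treacle, the nucleolar protein altered in Treacher Collins syndrome, which is needed for ribosomal DNA transcription. Its values were 0.35, 0.48 and 0.14 in controls and -0.47, -0.14 and -0.19 in caNFATc1 cells, with no overlap and a difference of -0.59 ± 0.24. Nolc1, a snoRNP chaperone that partners with treacle, had control values of 0.48, 0.32 and 0.21 and caNFATc1 values of -0.21, -0.22 and -0.28. The caNFATc1 arrays lay close together and well below the controls, at a difference of -0.58 ± 0.11. Ubtf, the factor that binds the ribosomal gene promoter and opens its chromatin, was at 0.13, 0.08 and -0.05 in controls and -0.17, 0.05 and -0.15 in caNFATc1 cells. These groups overlapped, and the difference was -0.14 ± 0.14, about the size of its SD over pairs. Rrp8, a methyltransferase of the large ribosomal RNA that also takes part in silencing ribosomal genes, differed by -0.22 ± 0.15 without overlap.

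Myc, a known regulator of the pathway, was lower in every pair (21.3% of all genes were) but varied between cultures. Its values were 0.60, -0.02 and 0.13 in vector control replicates 1, 2 and 3 and 0.02, -0.13 and -0.29 in caNFATc1 replicates 1, 2 and 3. The control value of replicate 1 stood far above the others, and the groups overlapped. Pair differences of -0.58, -0.11 and -0.41 gave a mean of -0.37 ± 0.24. Limma called Myc lower neither with nor without the block. It was not among the 25 genes of the set at an unadjusted p under 0.05. Whether Myc had a part in the other differences was not tested.

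Nucleolin and nucleophosmin, abundant nucleolar proteins that bind ribosomal RNA and act as chaperones, were each measured by 1 row of their own. Ncl was at 0.10, 0.31 and 0.16 in controls and -0.16, -0.10 and -0.19 in caNFATc1 cells. The groups did not overlap and the difference was -0.34 ± 0.08. Npm1 was at -0.00, 0.16 and 0.23 in controls and 0.00, -0.09 and -0.06 in caNFATc1 cells, so the groups met, and the pairs differed by 0.00, -0.25 and -0.29. Npm1 has near-identical copies elsewhere in the genome: 3 further rows annotated to both Npm1 and Gm15484, left out of the set, gave mean differences between -0.13 and -0.08, each positive in pair 1 and negative in pairs 2 and 3.

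The snoRNP proteins were lower without exception. Box H/ACA snoRNPs guide the conversion of uridine to pseudouridine. All 4 of their core proteins were lower without overlap (9.09% of all genes were) and negative in all 3 pairs (21.3% of all genes). Dkc1, the pseudouridine synthase dyskerin, had control values of 0.42, 0.29 and 0.24 and caNFATc1 values of -0.35, -0.24 and -0.25. The groups were well apart, more so in pair 1 (-0.77) than in pairs 2 and 3 (-0.53 and -0.48), and the mean difference of -0.59 ± 0.16 amounts to 1.51-fold. Gar1, at 0.47, 0.13 and 0.46 in controls and -0.18, -0.38 and -0.13 in caNFATc1 cells, differed by -0.58 ± 0.07. Its replicate 2 was the lowest array of both groups, so the pair differences of -0.64, -0.51 and -0.59 were more alike than the arrays themselves. Nhp2 was at 0.13, 0.22 and 0.02 in controls and -0.48, -0.02 and -0.27 in caNFATc1 cells (-0.38 ± 0.19), and Nop10 differed by -0.19 ± 0.07.

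Box C/D snoRNPs guide 2′-O-methylation of ribosomal RNA. Fbl, the methyltransferase fibrillarin, was at 0.28, 0.10 and 0.15 in controls and -0.24, -0.16 and -0.14 in caNFATc1 cells, with no overlap and a difference of -0.35 ± 0.14. Its 2 rows gave -0.39 and -0.31. Nop58 and Nop56 are the paired scaffold proteins of the particle. Nop58 was at 0.17, 0.36 and 0.10 in controls and -0.26, -0.10 and -0.30 in caNFATc1 cells, without overlap, and its pair differences of -0.43, -0.46 and -0.40 were among the most even of the set. Nop56 was at 0.37, 0.20 and -0.01 in controls and -0.23, 0.01 and -0.32 in caNFATc1 cells, where control replicate 3 was below caNFATc1 replicate 2, and it differed by -0.36 ± 0.21.

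**Figure D3:**
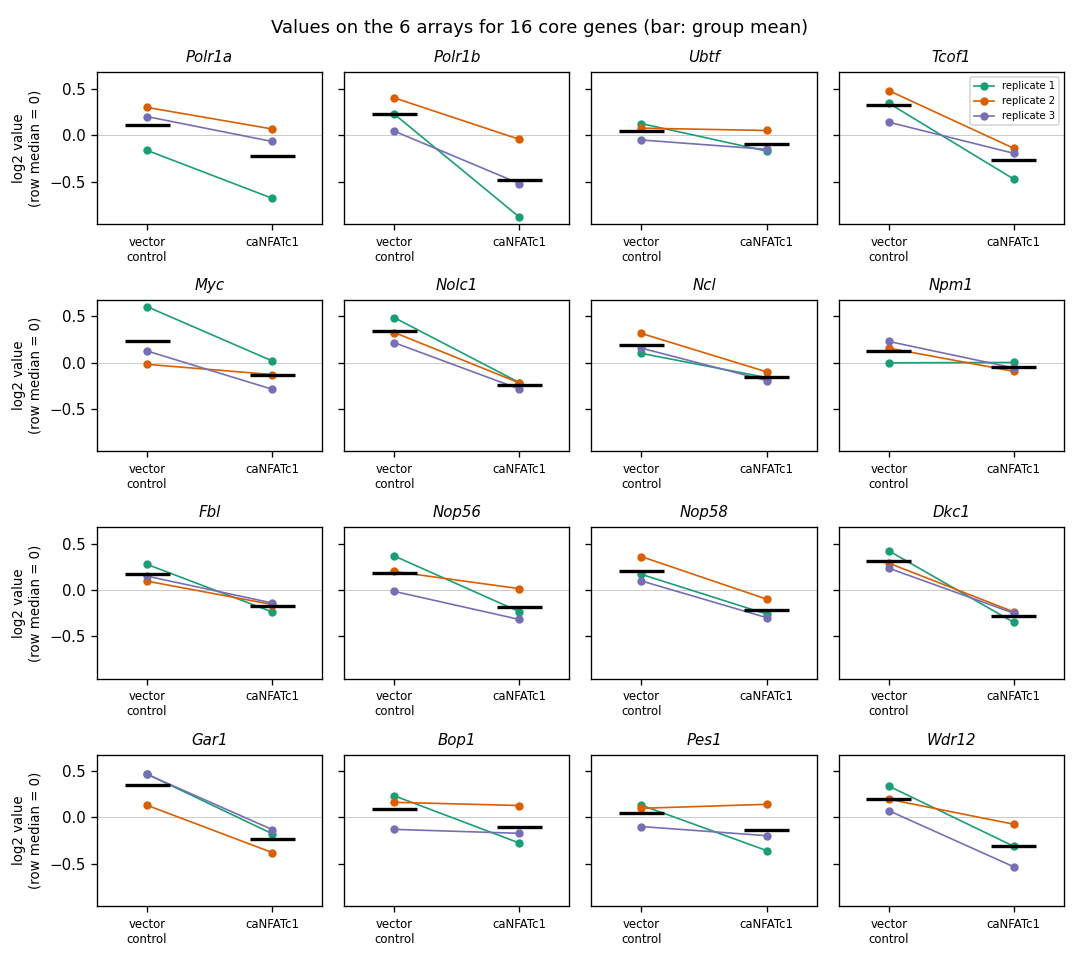
Each panel plots the log2 value (row median set to 0) of 1 of 16 core genes on the 3 vector control and 3 caNFATc1 arrays, with lines joining arrays of the same replicate number and black bars at group means. Lines slope down in all 3 pairs for every plotted gene except Pes1 and Npm1. Those of Pes1, Npm1, Bop1 and Ubtf are close to level in at least 1 pair.

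The small subunit processome assembles on the growing precursor RNA. All 19 genes placed with it and with 40S maturation had a negative mean difference (52.6% of all genes did). Of these, 15 were negative in all 3 pairs (21.3% of all genes) and 8 lower without overlap (9.09% of all genes). Limma called 6 of the 19 lower with the block (31.6%, beside 2.38% of all genes) and 0 without it. Rrp9, which binds the U3 snoRNA at the core of the processome, was at 0.47, 0.28 and 0.11 in controls and -0.41, -0.11 and -0.46 in caNFATc1 cells. Every caNFATc1 array was below every control, and the difference was -0.61 ± 0.24, or 1.53-fold lower. The processome components Utp25 and Utp20 differed by -0.48 ± 0.15 and -0.43 ± 0.11. Utp15, Nol11 and Utp4 belong to the subcomplex that also supports ribosomal DNA transcription. Utp15 and Nol11 differed by -0.40 ± 0.08 and -0.39 ± 0.11 without overlap, and Utp4 by -0.30 ± 0.17 with overlap. Further rows annotated to both Nol11 and Rps12, left out of the set, gave mean differences between -0.04 and -0.02. The pairs of each of these rows went in different directions.

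Further processome components were also lower. Nol10 differed by -0.37 ± 0.04, with pair differences of -0.33, -0.38 and -0.41. Rrp12, an export factor of the 40S precursor, and Utp6 differed by -0.31 ± 0.20 and -0.23 ± 0.05, also without overlap. Utp14a, Nol6, Nop14, Nop9, Utp18, Utp11 and Rrp36 had differences between -0.33 and -0.14 and overlapping groups. Nol6 was carried by caNFATc1 replicate 1, at -0.87, with pair differences of -0.67, -0.03 and -0.22. Nol7, Utp3 and Utp23 lay between -0.09 and -0.00. Nol7 was at 0.02, -0.02 and 0.12 in controls and 0.36, -0.31 and -0.21 in caNFATc1 cells, so it was higher in pair 1 by 0.34 and lower in pairs 2 and 3 by -0.29 and -0.33. Utp23 was at 0.04, -0.04 and 0.17 in controls and 0.29, -0.04 and -0.09 in caNFATc1 cells, and its pairs also went in different directions. Utp3 was at 0.03, 0.01 and -0.01 in controls and -0.05, 0.10 and -0.09 in caNFATc1 cells.

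The 60S assembly factors held both the lowest gene of the set and the one gene of a known ribosomal role with a positive mean. Rrp1b, a nucleolar relative of a yeast 60S factor, was at 0.35, 0.33 and 0.20 in controls and -0.68, -0.20 and -0.57 in caNFATc1 cells. No array of one group reached the other, and the difference was -0.77 ± 0.25, or 1.71-fold lower. Its relative Rrp1 was nearly flat, at 0.00, -0.00 and 0.00 in controls and 0.00, -0.01 and -0.13 in caNFATc1 cells. Rrs1, which helps bring the 5S ribonucleoprotein into the large subunit, was at 0.07, 0.29 and 0.35 in controls and -0.56, -0.07 and -0.37 in caNFATc1 cells, a difference of -0.57 ± 0.19.

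Pes1, Bop1 and Wdr12 form the PeBoW complex, which is needed to process the large subunit RNA, and they differed by between -0.51 and -0.18. Wdr12 was at 0.34, 0.20 and 0.07 in controls and -0.31, -0.07 and -0.53 in caNFATc1 cells, with no overlap and a difference of -0.51 ± 0.21, and its 2 rows gave -0.56 and -0.46. Bop1 was at 0.23, 0.16 and -0.13 in controls and -0.28, 0.13 and -0.17 in caNFATc1 cells. Pes1 was at 0.13, 0.10 and -0.10 in controls and -0.36, 0.14 and -0.20 in caNFATc1 cells. Bop1 and Pes1 overlapped, with mean differences of -0.20 ± 0.27 and -0.18 ± 0.28 that were carried by pair 1 (-0.51 and -0.49). They differed by -0.03 and 0.04 in pair 2 and by -0.04 and -0.10 in pair 3. Without replicate 1 of both groups, the mean differences of Bop1 and Pes1 were -0.04 and -0.03. Nop16 differed by -0.46 ± 0.20 and Rrp15 by -0.30 ± 0.14, both without overlap. Nop2, a methyltransferase of the large ribosomal RNA, and Nol9, a kinase that acts on spacer RNA ends, differed by -0.35 ± 0.25 and -0.34 ± 0.18 with overlap. Nol8 and Nol12 both differed by -0.10. Nop53, a late 60S factor, was at -0.02, -0.12 and 0.02 in controls and 0.02, 0.05 and -0.09 in caNFATc1 cells, a difference of 0.03 ± 0.14.

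Nol3, Nol4 and Nol4l match the naming rule, but Nol3 encodes an inhibitor of cell death and the other two have no well-established part in making ribosomes. Nol3 was at 0.50, -0.05 and 0.01 in controls and 0.36, -0.01 and -0.04 in caNFATc1 cells. Nol4 was at 0.01, 0.01 and 0.03 in controls and -0.10, -0.05 and 0.04 in caNFATc1 cells. Nol4l was at 0.26, -0.04 and -0.25 in controls and 0.02, 0.05 and -0.02 in caNFATc1 cells. All 3 overlapped, with differences of -0.05, -0.05 and 0.03, and without them the median of the remaining 51 genes was -0.31.

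Genes of the same pathway that the naming rule does not reach were lower by smaller amounts. Of 148 other ribosome biogenesis genes, 127 had a negative difference, the median was -0.19, and 46 were lower without overlap (9.09% of all genes were). Limma with group as the only term called 0 of them, with 49 at an unadjusted p under 0.05 in either direction (5.64% of all genes were lower and 7.07% higher at that p). With the replicate block it called 14 lower (9.46%, beside 2.38% of all genes) and 1 higher (beside 3.73% of all genes). Among 49 further 40S factors, 43 were negative, and with the block 4 fell (8.16%) and 1 rose. The genes with the lowest p without the block were Tsr2 (-0.36 ± 0.07, SE with the block, limma adjusted p = 0.0388 with the block and 0.0868 without), the kinase gene Riok3 (0.37 ± 0.07, 0.0389 and 0.0987), Krr1 (-0.28 ± 0.06, 0.0649 and 0.12) and the nucleolar protein gene Lyar (-0.65 ± 0.07, 0.011 and 0.132). The others that fell with the block were the ribosomal RNA methyltransferase gene Dimt1 (-0.39 ± 0.07, 0.039 and 0.221 by limma) and the acetyltransferase gene Nat10 (-0.44 ± 0.09, 0.0492 and 0.24). Riok3, a late 40S maturation kinase, was the 1 gene of the 148 that limma called higher with the block, while 21 had a positive difference.

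Of 51 further 60S factors, 44 were negative and 5 fell with the block (9.8%). They included Rpf2, a partner of Rrs1 on the 5S particle (-0.39 ± 0.06, SE with the block, limma adjusted p = 0.032 with the block and 0.105 without), Urb1 (-0.51 ± 0.10, 0.0454 and 0.129) and the histone and ribosomal protein chaperone gene Grwd1 (-0.51 ± 0.09, 0.0363 and 0.142). Znhit3 differed by -0.27 ± 0.07 and did not pass (0.087 and 0.178). In the list of snoRNP assembly, exosome and RNase P/MRP genes, 27 of 31 were negative and 5 fell with the block (16.1%). Naf1, which loads the H/ACA core proteins before Gar1 replaces it, fell by 0.77 with an SE of 0.06 (limma adjusted p = 0.00605 with the block and 0.258 without). The exosome genes Dis3 and Exosc8 fell by 0.46 and 0.61 (limma adjusted p = 0.0203 and 0.0158 with the block, 0.0748 and 0.0836 without), Rpp40 fell by 0.41 (0.0278 and 0.14), and the snoRNP helicase gene Ruvbl2 differed by -0.46 without passing (0.0548 and 0.12).

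Polymerase I factors outside the set had smaller differences on the whole. Of 17, 13 were negative, the median was -0.08 and limma called 0 with or without the block. By limma without the block, 5 had an unadjusted p under 0.05 in either direction (5.64% of all genes were lower and 7.07% higher). Of the 17, 3 were lower without overlap and 2, Baz2a and Top1, were higher without overlap (9.09% and 9.64% of all genes). The promoter selectivity factor genes Taf1a and Taf1d differed by -0.31 ± 0.07 and -0.51 ± 0.11 (SE with the block, limma adjusted p = 0.07 and 0.0572). The polymerase subunit gene Cd3eap differed by -0.31 ± 0.07 (limma adjusted p = 0.0551 with the block). Znrd1 and Twistnb, which also encode polymerase subunits, differed by -0.06 and -0.08 with overlapping groups. Baz2a, part of a complex that silences ribosomal genes, and Top1 differed by 0.26 ± 0.08 and 0.32 ± 0.11 (limma adjusted p = 0.122 and 0.179 with the block). Subunits of the other polymerases had medians of -0.06 (13 of RNA polymerase II) and -0.05 (20 genes of RNA polymerase III with its factors TFIIIB and TFIIIC), with 0 calls in either fit, and 0 and 2 genes at an unadjusted p under 0.05 by limma. Their lowest-p genes included Polr2h (-0.17), Polr2m (-0.15), Polr2e (-0.20) and Polr2l (-0.13), and Polr3e (-0.26), Gtf3a (-0.19), Polr3gl (0.23) and Brf1 (0.13).

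**Figure D4:**
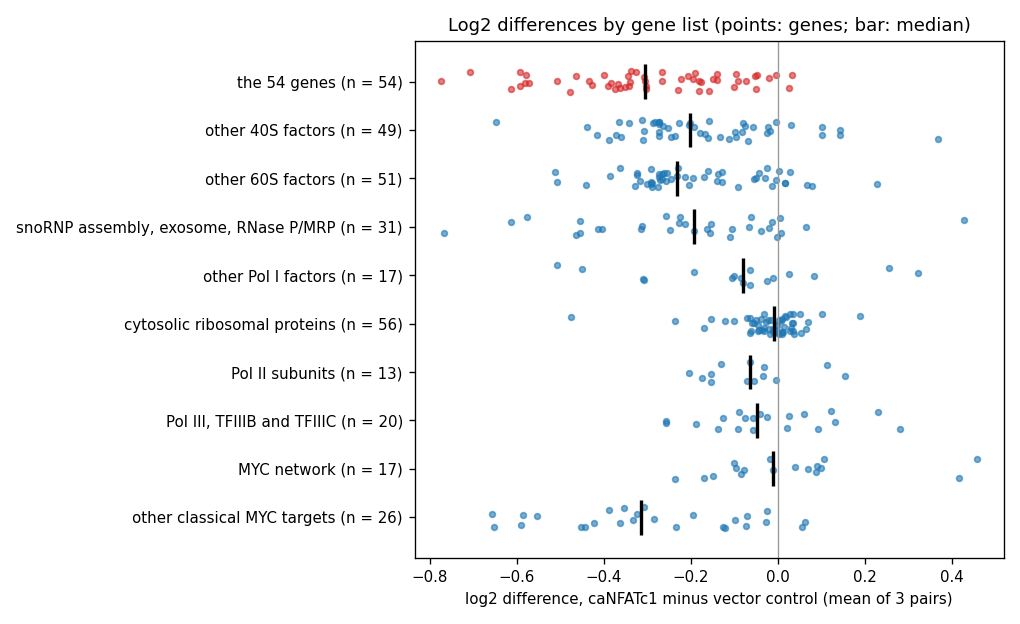
Points are genes, placed by mean log2 difference, caNFATc1 minus vector control, in the set of 54 (red) and in 9 other lists (blue), with a bar at each median. The set and the classical MYC targets have medians of -0.31 and -0.32, the further 40S and 60S factors -0.20 and -0.23, and the ribosomal proteins -0.01.

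Genes of the ribosomal proteins lay on both sides of 0. Of 81 listed, 56 had a row of their own; 31 were negative and 25 positive, with a median of -0.01 and pair medians of 0.09, -0.02 and -0.09. Many ribosomal protein genes have processed copies in the genome that can share probe signal, so these rows are uncertain. Limma called 0 with group as the only term (1 at an unadjusted p under 0.05), and with the block Rpl12 fell by 0.48 (limma adjusted p = 0.0293 with the block, 0.264 without). Rps27l, Rpl26 and Rps15a differed by -0.24, 0.19 and -0.15 with overlapping groups.

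Classical MYC targets outside ribosome biogenesis had a median of -0.32, and 24 of 26 were negative. Limma called 0 without the block and 8 lower with it (30.8%, beside 2.38% of all genes). By limma without the block, 14 had an unadjusted p under 0.05 in either direction (5.64% of all genes were lower and 7.07% higher). The mitochondrial protein gene C1qbp (-0.39 ± 0.06, SE with the block, limma adjusted p = 0.0304 with the block and 0.0601 without), the chaperonin gene Hspd1 (-0.45 ± 0.08, 0.0359 and 0.0868) and the purine synthesis gene Ppat (-0.55 ± 0.11, 0.0491 and 0.108) fell with the block, and Ranbp1 differed by -0.33 ± 0.07 without passing (0.0527 and 0.0973). The MYC network, that is its partner Max, its antagonists and its regulators, was balanced, with 8 of 17 positive and a median of -0.01. Limma called 0 of the 17 in either fit and 0 had an unadjusted p under 0.05. In that list Mycn, Bin1, Mnt and Max differed by -0.24, -0.17, 0.11 and 0.09.

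The labels and the cells were checked in the same table. The NFAT target Rcan1 was higher by 3.38 ± 0.24 (SD, n = 3 pairs), while the mouse Nfatc1 row, which may not see the human transgene, differed by 0.04 ± 0.12. Replicate 1 of both groups stood apart in Xist, by at least 5.97 log2 units below the other arrays, and Dkc1 and Utp14a are X-linked. Without replicate 1 of both groups the median of the set was -0.24. Medians of the marker lists of keratinocytes and of melanocytes, immune, endothelial and Merkel cells differed by between -0.05 and -0.01. The 10 keratinocyte markers went both ways, from -0.58 (Krt15, with overlapping groups) to 0.42 (Trp63), and Trp63 rose with the block (limma adjusted p = 0.0444, and 0.322 without). Of 10 fibroblast markers, 7 were higher in caNFATc1 cells, with a median of 0.11 (-0.07, -0.00 and 0.49 in pairs 1, 2 and 3). The other 3 fibroblast markers were lower, down to -0.22 (52.6% of all genes had a negative difference). Col3a1, the highest of the 10, rose by 1.20 with the block (limma adjusted p = 0.0296, and 0.108 without). Row-centred values give no level for these markers, and the part of such cells in the result was not tested.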

How the data were processed

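The log2 values deposited by the authors fill 1 table (28815 rows, 6 arrays). Per the submitters' processing notes the method was RMA and the build mm8. Its software and any row filter: not given in the sources used here. Every row median was 0 within 1e-06, so a planned filter on dim rows could not be run. Base 2 was taken from RMA. Rows were named from the platform annotation (21780 with 1 symbol, 1605 with several, 5430 not listed), and all 54 genes of the set were found by Entrez number in GRCm38.p6. Rows of a gene were averaged (4 genes of the set have several). Limma 3.58.1 in R 4.3.3 (lmFit, eBayes, 2-sided, Benjamini-Hochberg over 19935 genes, threshold 0.05) was fitted with group alone, and with the replicate number as a block, after tests on simulated data. P-values measure only the spread between these samples, and the number of arrays limits precision.

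As a check of pairing, each array's deviation from its group mean was correlated over all genes between groups. Equal replicate numbers gave 0.71, 0.61 and 0.57, unequal numbers -0.60 to 0.18, and a pairing needed over 0.1 in each, so equal numbers were treated as pairs. Control replicate 2 with caNFATc1 replicate 3, at 0.18, was also over 0.1. The series design names no pairing, so the pairs, their SDs and the block rest on these same data.

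The members and lists were chosen with earlier results of these data known. Values on every array were printed for 18 core members and for the 8 highest and 8 lowest by mean difference, with some others. In each list outside the set, up to 4 genes with the lowest unadjusted p without the block were named, and marker lists are given mainly by medians. Naf1, Dimt1, Nat10, Top1, Znrd1, Twistnb, Krt15, Trp63 and Col3a1 were named after their values were seen.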

Additional observations from a re-analysis of the deposited data

How the results depend on the processing

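The median difference of the set stayed negative under all 18 alternatives, between -0.36 and -0.21, and that of the 148 other ribosome biogenesis genes between -0.22 and -0.16. Adding the replicate block or robust variance keeps every difference, so the 18 are not all separate checks of these medians. Mean differences of 46 of the 54 genes were negative in every setting, and all settings reuse the same 6 arrays. The matching share over all genes was not counted. The replicate block, which keeps the differences and changes the errors, moved the calls: 17 of the set lower, 14 lower and 1 higher among the other biogenesis genes, and 744 higher and 475 lower of all genes (41 and 2 without it). With the block and 1 replicate number left out of both groups, the set had 6, 10 and 8 calls lower (without replicate 1, 2 and 3), the other biogenesis genes 6, 4 and 6, and all genes 202, 230 and 481 lower and 509, 513 and 605 higher. Without the block, leaving out 1 array or 1 replicate number gave between 0 and 1 of the set lower, between 1 and 5 positive in the set, and between 0 and 74 higher and between 0 and 9 lower of all genes. Quantile normalization called 2 of the set (Dkc1 and Nolc1) and 149 higher and 20 lower of all genes. Leaving out Nol3, Nol4 and Nol4l, an alternative chosen after seeing the data, left 1 positive gene. The causes were not tested. Centring arrays on their medians, robust variance and other row choices moved none of these counts by over 1.5 times.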
